A study of Mus musculus with 8 samples.

Results

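The midpiece of the sperm tail carries a sheath of mitochondria, and 7 mouse genes tied to that sheath are described here: Smcp, Gk2, Gykl1, Armc12, Tbc1d21, Vdac2 and Vdac3. They were chosen by name, as genes known to be needed for the sheath or to act at its outer membranes, and each symbol was matched to 1 of the 56748 Ensembl gene rows of the count table. All 7 passed the low-count filter, which left 21805 genes. The RNA came from testes of adult mice and was sequenced as 4 libraries with the label Ak9 knockout (genotype Ak9-/-) and 4 with the label wild type (genotype WT). AK9 is an adenylate kinase, an enzyme that moves phosphate between adenine nucleotides, and the series concerns its role in sperm motility. Strain, age beyond adult, the form of the deleted allele and whether each library came from a separate animal were not stated in the labels, so p-values measure only how these libraries scatter, and that scatter may be technical.

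During spermiogenesis, mitochondria of the elongating spermatid are recruited to the growing tail, line up around the outer dense fibres and are wound into a tight helix. Fully formed sperm make almost no RNA, and many sheath transcripts are made earlier, in spermatocytes and round spermatids, and are stored before they are translated; the Smcp message is a textbook case of such storage. In mice, loss of ARMC12, TBC1D21, GK2 or GYKL1 is known to disturb how the mitochondria are arranged along the midpiece.

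Promoter sequence is shown for the sheath genes that RefSeq's table held, 3 of the 7, and for Gk, the somatic parent of Gk2 and Gykl1, whose values did not follow theirs. Each run is the 250 bases just before the RefSeq start on build GRCm38.p6, written 5′ to 3′ on the strand of the gene. Capitals mark the core of the SOX motif, ACAAT, on either strand.
Smcp, chr3:92589074-92589323, minus strand: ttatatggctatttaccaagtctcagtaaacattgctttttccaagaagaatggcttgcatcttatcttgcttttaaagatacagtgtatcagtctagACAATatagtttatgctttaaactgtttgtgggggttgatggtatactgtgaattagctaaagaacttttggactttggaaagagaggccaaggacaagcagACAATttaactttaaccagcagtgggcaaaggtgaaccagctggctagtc
Gk2, chr5:97457024-97457273, minus strand: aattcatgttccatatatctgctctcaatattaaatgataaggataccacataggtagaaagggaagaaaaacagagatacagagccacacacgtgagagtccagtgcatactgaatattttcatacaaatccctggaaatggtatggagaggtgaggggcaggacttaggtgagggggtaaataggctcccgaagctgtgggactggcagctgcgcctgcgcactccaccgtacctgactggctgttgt
Tbc1d21, chr9:58370456-58370705, minus strand: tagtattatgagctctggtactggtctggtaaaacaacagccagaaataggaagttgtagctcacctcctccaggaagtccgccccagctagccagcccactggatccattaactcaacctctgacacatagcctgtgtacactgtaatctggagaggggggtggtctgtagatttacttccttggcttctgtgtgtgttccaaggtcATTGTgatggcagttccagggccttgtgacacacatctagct
Gk, chrX:85776820-85777069, minus strand: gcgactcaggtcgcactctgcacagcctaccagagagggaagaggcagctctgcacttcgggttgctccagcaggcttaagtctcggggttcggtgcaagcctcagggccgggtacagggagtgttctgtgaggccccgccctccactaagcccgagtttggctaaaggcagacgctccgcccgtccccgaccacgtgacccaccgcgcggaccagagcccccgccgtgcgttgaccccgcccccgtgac

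In these windows ACAAT was found 2 times for Smcp, 152 and 50 bases before the start, and 1 time for Tbc1d21, 42 bases before it. Of 27025 RefSeq promoters of the same length, 28.3% held ACAAT. The cAMP response core TGACG (in 17.9% of promoters), the X-box core GTTGCC (10.5%) and the TATA box TATAAA (13.0%) were also searched on both strands, and their letters were not in these 4 windows. G and C made up 38.0% of the Smcp window, 47.2% for Gk2, 49.6% for Tbc1d21 and 67.2% for Gk, against a median of 52.0% over all promoters. For Smcp the bases after the RefSeq start are not part of the GENCODE M21 transcripts, so its start is less certain than the others.

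Depth was similar in both groups, with 18062780 to 23846772 counts per library in knockout-labelled libraries and 18763650 to 24415587 in wild types. The knockout-labelled libraries were less alike than the wild types, with pairwise Spearman correlations across genes of 0.957 to 0.977, against 0.991 to 0.993. Labelled knockout 3 stood apart in spermatid genes, and results are therefore also given without it. Ak9 itself was at 69.3, 116, 101 and 40.6 CPM (counts per library size, scaled by TMM) in knockout-labelled libraries 1 to 4 and 108, 115, 122 and 107 CPM in wild types 1 to 4. Labelled knockout 2 lay inside the wild-type range, and the gene total does not show which exons were deleted, so groups are named by their labels throughout.

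The sheath genes are among the strongly expressed genes of these testes. Levels of different genes are compared per length, as CPM per kilobase of GENCODE M21 exon. Smcp, whose cysteine-rich protein sits at the sperm mitochondrial capsule, was the highest, at 1537 ± 496 in knockout-labelled libraries and 1451 ± 88.7 in wild types (SD, n = 4 per group, as for all means here). Its wild-type level was the 8th highest of 21330 tested genes with a length. Gk2 had 374 ± 109 in knockout-labelled libraries and 362 ± 22.2 in wild types, and Gykl1 had 266 ± 67.3 and 249 ± 15.3 in the same order. Both belong to the glycerol kinase family, are known mainly from testis and have a single exon in GENCODE M21.

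Armc12, an armadillo-repeat protein of the mitochondrial surface, had 141 ± 47.3 CPM per kilobase in knockout-labelled libraries and 126 ± 11.6 in wild types. Tbc1d21, a protein with the TBC domain of Rab GTPase-activating proteins, had 117 ± 38.8 in knockout-labelled libraries and 106 ± 6.72 in wild types. Vdac2 and Vdac3, pores of the outer mitochondrial membrane, had 108 ± 17.4 and 65.6 ± 7.06 in knockout-labelled libraries and 103 ± 1.80 and 59.4 ± 2.00 in wild types. The neighbours Armc12 and Tbc1d21, and Tbc1d21 and Vdac2, overlapped between wild-type libraries, while the other steps in the order showed no overlap between wild types.

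The place of the porins depends on the length used. Divided by the median length of coding transcripts in place of all exons, wild-type levels were 534 CPM per kilobase for Vdac2 and 232 for Vdac3, against 362 for Gk2, 249 for Gykl1, 173 for Armc12 and 110 for Tbc1d21. Together the 7 genes held 0.401%, 0.399%, 0.271% and 0.422% of all counts in knockout-labelled libraries 1 to 4 and 0.349% to 0.379% in wild types.

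**Figure D1:**
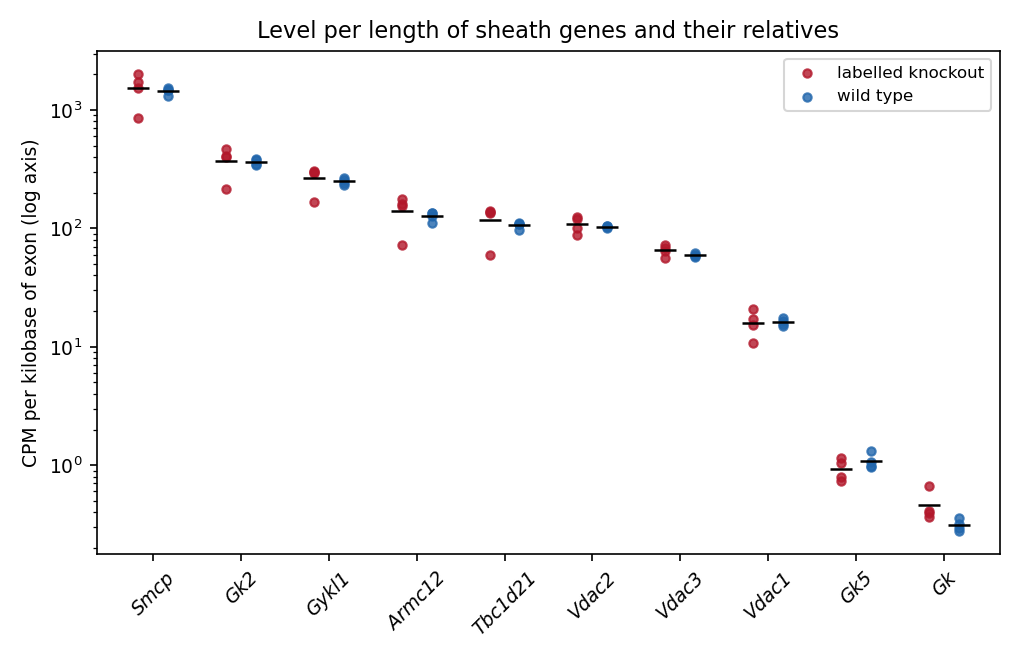
Level of each sheath gene and of the relatives Vdac1, Gk5 and Gk in CPM per kilobase of exon, on a log axis, with 1 point per library and a black dash at the group mean. Smcp lies highest, at 1537 in knockout-labelled libraries and 1451 in wild types, and the somatic relatives of the glycerol kinases lie lowest, at about 1 or below.

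The question put to these genes was whether their transcripts differ between testes labelled Ak9 knockout and wild-type testes. None of the 7 passed edgeR's quasi-likelihood test in either direction at an adjusted p under 0.05, and 0 of 7 had an unadjusted p under 0.05, where 3.04% of all tested genes did. DESeq2 and limma-voom also called 0 of 7. Of the 21805 genes tested with edgeR, 0.0183% passed, 4 genes higher and 0 lower. With 1 library left out, that split held without labelled knockout 2 (5 higher, 0 lower) and without any single wild type (3 or 4 higher, 0 lower). It did not hold without labelled knockout 1, 3 or 4. Dropping labelled knockout 1 gave 24 genes lower and 9 higher. Dropping labelled knockout 3 gave 12 lower and 23 higher, and dropping labelled knockout 4 gave 19 lower and 14 higher. DESeq2 on all libraries called 27 higher and 21 lower. All 7 sheath genes had a log2 fold change above 0, from 0.04 to 0.16 with a median of 0.10, against a median of 0.01 over all genes tested. That was not particular to them. Of the spermatid markers described below, 12 of 12 round ones (median 0.10) and 11 of 12 elongating ones (median 0.13) were above 0. The sheath genes also ran together across libraries, so their shared sign is not 7 separate results. Without labelled knockout 4 the values of Smcp and Gk2 were -0.08 and -0.09, without labelled knockout 1 those of Gk2 and Vdac2 were both -0.01, and without labelled knockout 2 that of Gk2 was -0.01. For 0 of the 7 did all knockout-labelled libraries lie above all wild types (0.981% of tested genes) or below them (1.32%).

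Smcp was at 1572, 1405, 783 and 1853 CPM in knockout-labelled libraries 1 to 4, against 1390, 1206, 1347 and 1354 CPM in wild types 1 to 4. Labelled knockouts 1, 2 and 4 lay above every wild type and labelled knockout 3 below every one, at 59.2% of the wild-type mean. The log2 fold change was 0.08 (SE 0.22, 95% interval -0.40 to 0.57, edgeR adjusted p = 1.00).

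Gk2 stood at 765, 758, 407 and 881 CPM in knockout-labelled libraries 1 to 4, against 652, 639, 722 and 712 CPM in wild types. Gykl1 stood at 557, 574, 308 and 541 CPM in knockout-labelled libraries and 476, 430, 496 and 453 CPM in wild types. Both kinases had the pattern of Smcp, with labelled knockout 3 at 59.7% and 66.5% of the wild-type mean and the other 3 knockout-labelled libraries above all wild types. Log2 fold changes were 0.04 for Gk2 (SE 0.20, 95% interval -0.40 to 0.49) and 0.10 for Gykl1 (SE 0.18, 95% interval -0.30 to 0.49).

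Armc12 was at 247, 256, 114 and 283 CPM in knockout-labelled libraries 1 to 4, against 213, 175, 215 and 202 CPM in wild types. Tbc1d21, a known binding partner of ARMC12 in mouse sperm, was at 186, 178, 78.7 and 182 CPM in knockout-labelled libraries, against 144, 128, 148 and 144 CPM in wild types. This pair had the lowest relative levels of the 7 genes in labelled knockout 3, at 56.8% and 55.8% of the wild-type mean, with the other knockout-labelled libraries at 123% to 141%. The log2 fold changes, 0.16 for Armc12 (SE 0.23, 95% interval -0.34 to 0.67) and 0.15 for Tbc1d21 (SE 0.22, 95% interval -0.35 to 0.64), did not pass.

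The porins varied less. Vdac2 was at 594, 476, 419 and 576 CPM in knockout-labelled libraries 1 to 4 and 501, 482, 491 and 500 CPM in wild types. Here knockout-labelled libraries 1 and 4 lay above every wild type, and knockout-labelled libraries 2 and 3 below every one. Vdac3, whose loss in mice is known to give infertile males with abnormal tails, was at 395, 352, 305 and 371 CPM in knockout-labelled libraries and 335, 309, 320 and 324 CPM in wild types.

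For Vdac3, labelled knockout 3 was at 94.7% of the wild-type mean, just under the lowest wild type, and the other knockout-labelled libraries exceeded all wild types. The log2 fold changes were 0.07 for Vdac2 (SE 0.13, 95% interval -0.22 to 0.35) and 0.14 for Vdac3 (SE 0.11, 95% interval -0.09 to 0.38). The smallest unadjusted p of the 7 genes was 0.211, for Vdac3.

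**Figure D2:**
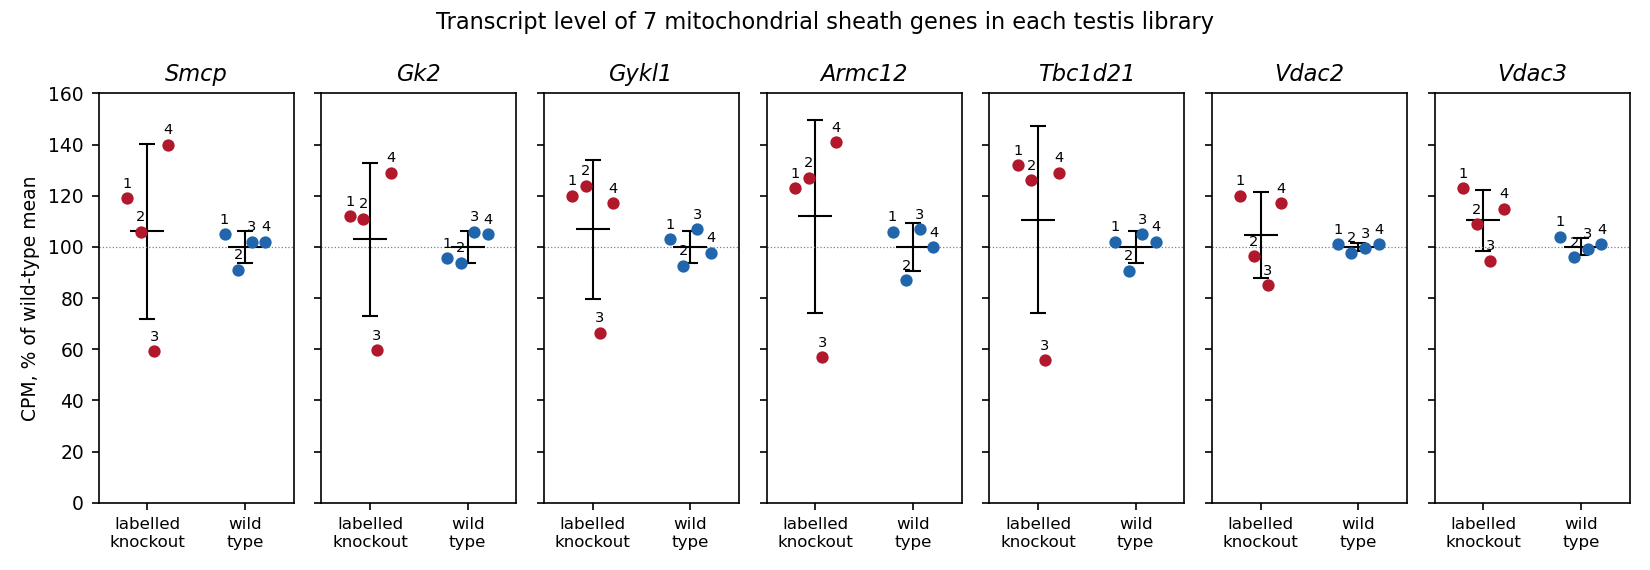
CPM of each sheath gene in each library, as a percentage of the wild-type mean of that gene; numbers give the library, the dash and bars the mean and SD (n = 4 per group). Labelled knockout 3 lies at 55.8% to 66.5% for the first 5 genes and at 85.0% and 94.7% for Vdac2 and Vdac3, while wild types lie between 87.0% and 107%.

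The genes differed in how far knockout-labelled libraries scattered. The SD of log2 CPM among knockout-labelled libraries was 0.54 for Smcp, 0.50 for Gk2, 0.43 for Gykl1 and 0.60 for Armc12 and for Tbc1d21, against 0.09, 0.09, 0.09, 0.14 and 0.09 among wild types. It was 0.24 for Vdac2 and 0.16 for Vdac3 among knockout-labelled libraries, against 0.03 and 0.05 among wild types. Over all genes tested the median SD was 0.30 among knockout-labelled libraries and 0.13 among wild types, so among knockout-labelled libraries the first 5 genes scattered more than the median gene and the porins less. That order rests on labelled knockout 3. Without it, an alternative chosen after the data were seen, the SD among the other knockout-labelled libraries was 0.20 for Smcp, 0.12 for Gk2, 0.04 for Gykl1, 0.10 for Armc12 and 0.03 for Tbc1d21, and 0.17 for Vdac2 and 0.08 for Vdac3, against 0.20 for the median gene. Vdac2 then scattered more than Gk2, Gykl1, Armc12 and Tbc1d21. The median gene is taken over genes of all levels and the sheath genes are strongly expressed, so the comparison with it is not matched for level.

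Across the 8 libraries Smcp, Gk2, Gykl1, Armc12 and Tbc1d21 ran closely together, with pairwise Pearson r of log2 CPM from 0.92 to 0.99. Their r with Vdac2 and Vdac3 was 0.69 to 0.89. These correlations describe 8 libraries that share their depth and cell makeup from gene to gene, and labelled knockout 3 lies far from the rest.

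Markers of spermatids moved with these genes. The score of 24 markers (12 of 12 round and 12 of 12 elongating spermatid genes tested), taken as their mean log2 CPM minus the wild-type mean, was 0.38, 0.19, -0.75 and 0.36 in knockout-labelled libraries 1 to 4 and between -0.14 and 0.06 in wild types. Summed over each list, round spermatid markers ranged from 1071 to 1963 CPM in knockout-labelled libraries and 1455 to 1642 CPM in wild types. Elongating spermatid markers ranged from 8343 to 20434 CPM in knockout-labelled libraries and 13375 to 16652 CPM in wild types. In bulk tissue, fewer spermatids and less RNA per spermatid cannot be told apart.

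Set against that score within each library, Smcp, Gk2, Gykl1, Armc12 and Tbc1d21 differed from the spermatid markers by -0.21 to 0.17 on the log2 scale in knockout-labelled libraries. In labelled knockout 3 the distance was -0.08 to 0.17, although the genes themselves stood at -0.84 to -0.58 against the wild-type mean there. Vdac2 and Vdac3 instead lay 0.52 and 0.67 above the spermatid score in that library, and between -0.24 and -0.06 from it in the other knockout-labelled libraries. Spermatocyte markers (10 of 10 tested) had scores of 0.03, 0.10, 0.05 and -0.03 in knockout-labelled libraries 1 to 4, against -0.13 to 0.10 in wild types. Single spermatocyte markers in labelled knockout 3 ranged from 87.5% (Syce1) to 143% (Meiob) of their wild-type means.

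**Figure D3:**
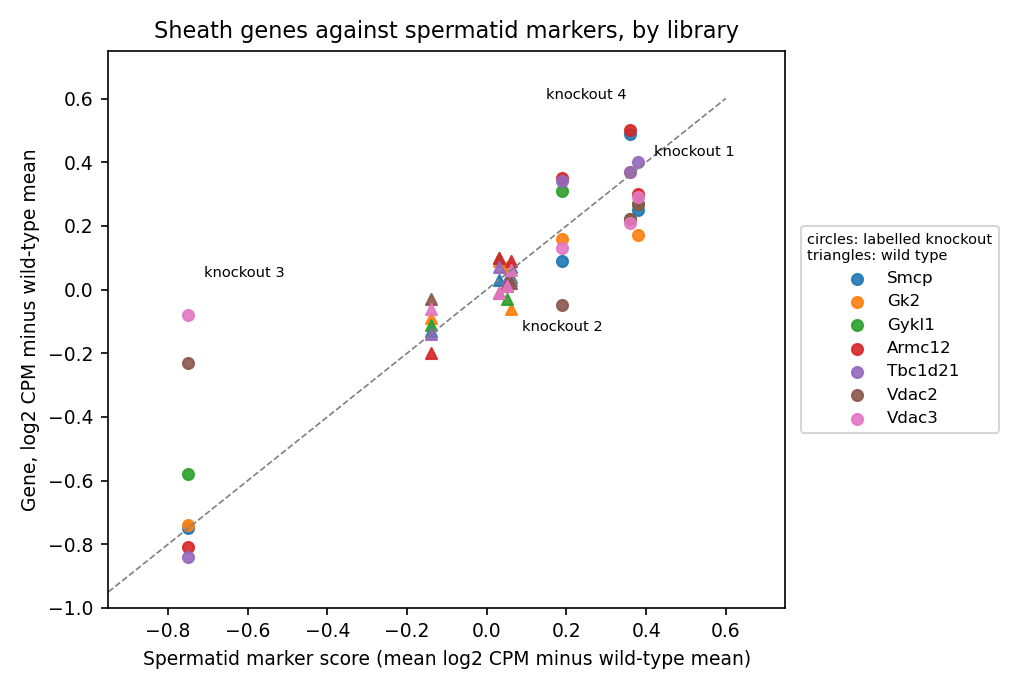
Each sheath gene (colour) in each library, as log2 CPM minus its wild-type mean, against the spermatid marker score of the library; circles are knockout-labelled libraries, triangles wild types, and the dashed line marks equal values. At the score of -0.75 of labelled knockout 3, Vdac2 (-0.23) and Vdac3 (-0.08) lie off the line, and the other 5 genes lie between -0.84 and -0.58.

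Markers of other cell types varied as well. Sertoli cell markers (10 of 10 tested) had scores of -0.24, -0.03, 0.47 and -0.50 in knockout-labelled libraries 1 to 4, and their sum ranged from 1021 to 1972 CPM in knockout-labelled libraries and 1427 to 1581 CPM in wild types. Spermatogonia markers had scores of -0.43, -0.05, 0.18 and -0.37 in knockout-labelled libraries, against -0.10 to 0.10 in wild types, and 9 of 10 had a log2 fold change below 0 with 0 past the test. Their sum was 197 to 299 CPM in knockout-labelled libraries and 244 to 268 CPM in wild types.

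Leydig cell markers had scores of -0.30, -0.47, -0.05 and -1.14 in knockout-labelled libraries 1 to 4, against -0.14 to 0.11 in wild types. All 7 had a log2 fold change below 0 (median -0.37), and 0 passed the test. Their sum was 812 to 1780 CPM in knockout-labelled libraries and 1617 to 1927 CPM in wild types, lowest in labelled knockout 4, where Smcp, Gk2 and Armc12 were at their highest. The 5 peritubular myoid markers had a median log2 fold change of 0.25, the 6 endothelial and macrophage markers -0.24 and the 4 blood markers 0.10, with 0 past the test in each list.

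Of the 8 epididymis markers 1 passed the filter, Rnase10. It was at 4.55, 3.62, 3.11 and 7.35 CPM in knockout-labelled libraries 1 to 4 and 4.89 to 7.06 CPM in wild types. Rnase10 was thus lowest in labelled knockout 3, unlike Crisp1 and Adam7 below. The sum of the 8 markers was 4.78, 4.44, 215 and 36.1 CPM in knockout-labelled libraries 1 to 4 and 5.30 to 7.96 CPM in wild types. Single epididymis markers that did not pass the filter are given in CPM without the TMM scaling, so they do not add up to these sums. Crisp1 was at 208 CPM in labelled knockout 3 and 22.0 CPM in labelled knockout 4, against at most 0.533 CPM in wild types. Adam7 was at 29.4 and 3.78 CPM in labelled knockouts 3 and 4, against at most 0.186 CPM in wild types. Gpx5, Cst11, Lcn5, Lcn8 and Defb20 were at 0 to 0.498 CPM in every library of either group. The part of these cell types in the values of the sheath genes was not tested.

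Without labelled knockout 3, the 3 remaining knockout-labelled libraries lay above all 4 wild types for 6 of the 7 genes, all but Vdac2, where 8.70% of 22131 tested genes did so. Round spermatid markers did so in 10 of 12 and elongating spermatid markers in 5 of 12. Log2 fold changes were 0.35 for Tbc1d21 (SE 0.07, edgeR adjusted p = 0.0734), 0.37 for Armc12 (SE 0.09, adjusted p = 0.0960), 0.27 for Smcp (SE 0.10, adjusted p = 0.184) and 0.25 for Gykl1 (SE 0.07, adjusted p = 0.124). For Gk2, Vdac3 and Vdac2 they were 0.22, 0.20 and 0.14 (adjusted p = 0.187, 0.170 and 0.375). None of the 7 passed, where 0.158% of genes did. The median of the 7 was 0.25, beside 0.28 for round and 0.33 for elongating spermatid markers and -0.01 for all genes. Labelled knockout 3 was left out after its low spermatid values were seen. For the 6 sheath genes without overlap it was the only knockout-labelled library not above the wild types, so that count followed from the choice. The sheath genes and spermatid markers also moved together, so they are not separate observations.

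With the spermatid score as a covariate and all 8 libraries, the intervals of the 7 genes narrowed. Log2 fold changes then ran from -0.05 (Gk2, 95% interval -0.20 to 0.11) to 0.04 (Armc12, -0.11 to 0.19) for 6 of the 7 genes. Smcp and Gk2 changed sign in this fit, to -0.02 and -0.05. Vdac3 was at 0.13 (95% interval 0.00 to 0.25, unadjusted p = 0.0440, edgeR adjusted p = 0.677). In this fit 0.138% of tested genes passed, and 0 of the 7. The score came from the same 8 libraries. Its r with log2 CPM was 0.96 to 0.99 for Smcp, Gk2, Gykl1, Armc12 and Tbc1d21, 0.88 for Vdac2 and 0.82 for Vdac3. With r this high, narrower intervals were built into the fit. A difference between the labels that the score itself carries would not show in it.

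**Figure D4:**
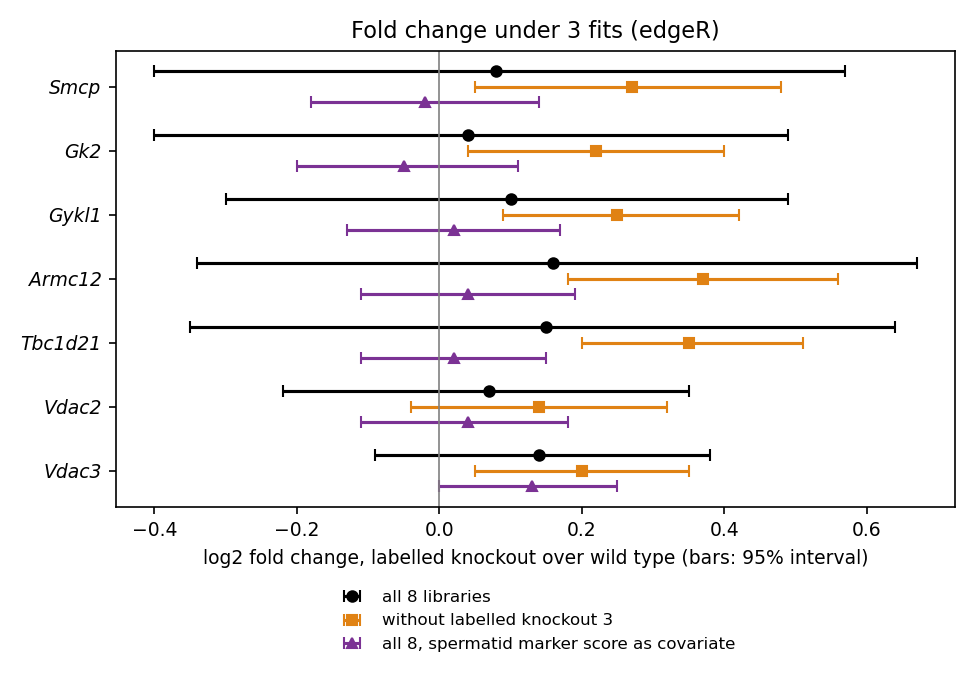
Log2 fold change of each sheath gene, labelled knockout over wild type, with its 95% interval from edgeR: all 8 libraries, without labelled knockout 3, and with the spermatid marker score as a covariate. All 7 values lie above 0 with all libraries (0.04 to 0.16) and without labelled knockout 3 (0.14 to 0.37), and from -0.05 to 0.13 with the covariate.

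Ratios between related genes in the same library do not depend on library scaling. Per Vdac2 count there were 0.664, 0.739, 0.726 and 0.644 Vdac3 counts in knockout-labelled libraries 1 to 4 and 0.669, 0.640, 0.651 and 0.648 in wild types. The log2 ratio was -0.53 ± 0.10 in knockout-labelled libraries and -0.62 ± 0.03 in wild types, a difference of 0.09 (two-sided exact permutation p = 0.200, 0.600 adjusted over 3 ratios, where the smallest possible p is 0.0286). Labelled knockouts 2 and 3 had the highest Vdac3 share, and the other knockout-labelled libraries overlapped the wild types.

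Gk2 to Gykl1 had a log2 ratio of 0.49 ± 0.14 in knockout-labelled libraries and 0.56 ± 0.08 in wild types (difference -0.07, exact permutation p = 0.400, adjusted 0.600). Armc12 to Tbc1d21 had 0.53 ± 0.09 in knockout-labelled libraries and 0.51 ± 0.05 in wild types (difference 0.02, exact permutation p = 0.800, adjusted 0.800). None of the 3 ratios passed the test, and the last difference was -0.02 without labelled knockout 4.

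The somatic relatives did not share the pattern of the sheath genes. Vdac1, the most widespread porin of somatic tissue, was at 39.8, 45.2, 54.4 and 28.1 CPM in knockout-labelled libraries 1 to 4, against 40.9, 45.8, 39.2 and 42.9 CPM in wild types. Its highest value was in labelled knockout 3, where Vdac2 and Vdac3 were lowest, and its r was -0.76 with the spermatid score and 0.94 with the Sertoli score over the 8 libraries. The log2 fold change was -0.01 (SE 0.17, edgeR adjusted p = 1.00).

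Gk, the X-linked glycerol kinase, was at 2.84, 3.18, 5.18 and 3.03 CPM in knockout-labelled libraries and 2.30, 2.16, 2.47 and 2.75 CPM in wild types. All 4 knockout-labelled libraries exceeded all wild types, labelled knockout 3 by most, on 52 to 105 counts per library in knockout-labelled libraries and 43 to 61 in wild types. The log2 fold change of 0.56 (SE 0.23, unadjusted p = 0.0367) did not pass over all genes (edgeR adjusted p = 1.00). Gk5, another family member, was at 7.94 ± 1.70 CPM in knockout-labelled libraries and 9.22 ± 1.38 in wild types (-0.21 as log2 fold change, SE 0.19).

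Of 15 further midpiece genes, 0 passed the test in either direction, and 13 had a log2 fold change above 0 (median 0.07, range -0.08 to 0.18). Without labelled knockout 3 their median was 0.24, again with 0 of 15 past the test. Gpx4, the selenoprotein that hardens into the capsule around sperm mitochondria, was at 1493, 1245, 751 and 1642 CPM in knockout-labelled libraries 1 to 4 and 1251, 1045, 1222 and 1247 CPM in wild types. Spata19, a spermatid mitochondrial protein needed for male fertility in mice, was at 386, 387, 168 and 408 CPM in knockout-labelled libraries and 327, 306, 348 and 338 CPM in wild types. Both were lowest in labelled knockout 3, as the sheath genes were.

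Klc3, a kinesin light chain of the midpiece, had 31.0 ± 11.9 CPM in knockout-labelled libraries and 30.0 ± 3.34 in wild types. Septin4, a protein of the annulus that ends the midpiece, had 151 ± 44.6 and 143 ± 8.02 in the same order. Slc22a14, a transporter of the sperm midpiece, had 228 ± 63.4 CPM in knockout-labelled libraries and 224 ± 11.7 in wild types. Immt, which organises the cristae, had 210 ± 29.9 and 201 ± 8.39, and Mff, a receptor for mitochondrial fission, 279 ± 53.9 and 265 ± 16.2 in that order.

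In labelled knockout 3 the further midpiece genes ranged from 51.0% to 96.7% of their wild-type means, and not all of them were lowest there. Slc25a31, the ADP/ATP carrier of male germ cells, did not dip in labelled knockout 3. It was at 85.2, 95.5, 92.4 and 87.4 CPM in knockout-labelled libraries 1 to 4 and 85.5, 105, 97.0 and 94.4 CPM in wild types (-0.08 as log2 fold change, SE 0.10). Cyct, the testis cytochrome c, had the smallest p of these genes, with 69.4 ± 8.14 CPM in knockout-labelled libraries and 61.4 ± 2.62 in wild types (0.18 as log2 fold change, SE 0.11, unadjusted p = 0.119).

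Genes of the outer membrane and of mitochondrial fusion and fission showed small differences between the groups. Of 20 tested, 0 passed, 12 were above 0 and 8 below, with a median log2 fold change of 0.03 and a range of -0.16 to 0.17. The score of this list lay between -0.02 and 0.06 in knockout-labelled libraries, also in labelled knockout 3, and between -0.02 and 0.02 in wild types. That score averages genes that went opposite ways: in labelled knockout 3 single genes ranged from 76.7% to 143% of their wild-type means. Without that library the log2 fold changes ranged from -0.40 to 0.22. Mief1, an adaptor for fission, had the smallest p, with 95.7 ± 11.7 CPM in knockout-labelled libraries and 84.8 ± 5.51 in wild types (0.17 as log2 fold change, SE 0.11). Pld6, a mitochondrial phospholipase family protein reported to act with GK2 and GYKL1 in mice, had 64.6 ± 2.29 CPM in knockout-labelled libraries and 62.3 ± 5.65 in wild types, all 4 knockout-labelled libraries inside the wild-type range.

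Of 12 genes that move or phosphorylate glycerol or its phosphate, 0 passed, with a median of 0.02 and a range from -0.65 for Aqp3 to 0.56 for Gk. Aqp7, a glycerol channel of spermatids, was at 159, 141, 78.9 and 169 CPM in knockout-labelled libraries 1 to 4 and 133, 112, 127 and 129 CPM in wild types. Like Gk2 and Gykl1, it was lowest in labelled knockout 3 and above all wild types in the other 3 knockout-labelled libraries.

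Genes whose pattern over the 8 libraries was most like the mean profile of the 7 sheath genes were sought among 9622 genes with a mean of at least 10 CPM. They were Ms4a13 (r = 0.998), Mgat4c, Zfp451 (both 0.997), Klhl10 and Lypd4 (both 0.996). Klhl10, a spermatid gene whose haploinsufficiency makes male mice infertile, was at 451, 398, 224 and 460 CPM in knockout-labelled libraries 1 to 4 and 368, 308, 354 and 365 CPM in wild types. For single genes the closest were Nt5c1b for Smcp, Lrrc57 for Gk2, Izumo1 for Gykl1, Kcnu1 for Armc12, Lrrc18 for Tbc1d21, Sox5 for Vdac2 and Ppil2 for Vdac3 (r = 0.983 to 0.998). With 9622 genes and 8 libraries, of which 1 stands apart, r this high describes the libraries and no more. Izumo1 is itself one of the round spermatid markers used here.

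Copies of the members could share their reads. Vdac3-ps1 is 99.2% identical to Vdac3 over 856 bases, and Gm7591 is 96.7% identical. Their rows held 29 to 65 and 2 to 11 counts per library, against at least 6172 for Vdac3. Gm7832, 97.0% identical to Vdac2, held 8 to 27 counts, against at least 8498 for Vdac2. These counts do not show whether reads matching both a gene and its copy were shared or discarded. Gk2 and Gykl1 are 78.1% identical over 1619 bases, and Gk is 80.9% identical to each. The Vdac2 exons overlap Comtd1 on the other strand, which held 19 to 54 counts; whether reads were counted by strand was not stated.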

How the data were processed

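The authors deposited raw counts per Ensembl gene, whole numbers with no normalization, for 8 testis libraries. The submitters' processing notes name GRCm39 and mm39 as builds and Trimmomatic, STAR, featureCounts and DESeq2 as tools, without versions, annotation release or strand setting. Per the labels' protocols, libraries were made with a TruSeq RNA kit from DNase-treated total RNA.

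Of 56748 gene identifiers, 52073 had a symbol in GENCODE M21. That annotation and RefSeq's promoters are on GRCm38, not the authors' build, and served for names, lengths, copies (blastn 2.17.0) and promoters only. filterByExpr (minimum count 10, minimum total 15) left 21805 genes. Groups were compared with edgeR 4.0.16 (TMM, quasi-likelihood test, no covariates, R 4.3.3), with Benjamini-Hochberg adjustment over all genes tested and a threshold of 0.05. Each SE was taken from the log2 fold change and the F statistic, and 95% intervals from that SE and the t distribution. Per-library log values are log2(CPM + 0.5). Ratios were tested by exact permutation of the 8 libraries (70 splits). Totals of 18062780 to 24415587 counts put 3 counts at 0.123 to 0.166 CPM; this covers counting error only. No library was a copy of another (chi-square per gene at least 4.19). The tests were checked on simulated counts.

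The sheath genes, lists and tests were chosen with earlier results of these data known. Genes named are the 7 sheath genes, Ak9, a fixed set of relatives and midpiece genes, the list member with the smallest p where none passed, and the genes most alike in pattern: 5 for the mean profile and 1 per sheath gene. Further list members given as examples (Aqp3 and the epididymis markers), the copies and Comtd1 were chosen after their values were seen. The second length measure, the promoter motifs and the list counts without labelled knockout 3 were also chosen after the data were seen. Alternatives were a replicate block, RLE size factors, 2 other low-count filters, DESeq2 1.42.0, limma-voom (limma 3.58.1) with and without quality weights, the spermatid score as a covariate, and leaving out each library.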

Additional observations from a re-analysis of the deposited data

Results flagged for a closer look

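In labelled knockout 3, 3 genes lay far from the other knockout-labelled libraries by Dixon's ratio, the gap to the nearest library divided by the range of the group, above its 95% critical value for 4 libraries. The ratio was taken on log2 CPM, so it does not follow directly from the CPM values given beside it. It was 0.954 for Tbc1d21 (78.7 CPM there, against 178 to 186 CPM in the other 3). For Gykl1 it was 0.904 (308 against 541 to 574 CPM) and for Armc12 0.849 (114 against 247 to 283 CPM). Whether each flag holds on CPM without the log was not tested. In all 20 groups of 4 values were examined, and chance gives about 1 in 20 where groups are independent. These were not: the 3 genes ran together across libraries (Pearson r of log2 CPM 0.98 to 0.99). All 3 flags fell in the same library, so they are not separate events. Spermatid markers were also low in that library, with a score of -0.75, and their part in these values was not tested.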

How the results depend on the processing

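No sheath gene passed under any alternative run. Among all genes 4 passed, all higher, against 26 with no low-count filter (10 lower), 48 with DESeq2 (21 lower), 14 with quality weights (5 lower), 30 with the spermatid score as covariate (19 lower) and 3 to 35 with 1 library left out (33, 35 and 33 without labelled knockout 1, 3 or 4); the cause was not tested. The log2 fold change of Gk2 turned to -0.01 with the replicate block and with limma-voom and to -0.05 with the spermatid score, and that of Smcp to -0.02 with that score. With 1 library left out, the range was -0.09 to 0.22 for Gk2, -0.08 to 0.27 for Smcp, -0.01 to 0.14 for Vdac2 and -0.02 to 0.06 for the Armc12 to Tbc1d21 ratio. Signs turned for Gk2 without labelled knockout 1, 2 or 4, for Smcp without 4, for Vdac2 without 1 and for the ratio without labelled knockout 4 or wild type 2. Armc12, Tbc1d21, Vdac3 and the other ratios kept their sign under all of them, and Gykl1 did except without labelled knockout 2, where it was 0.00. Sizes moved more: with 1 library left out the range was 0.00 to 0.25 for Gykl1, 0.03 to 0.37 for Armc12, 0.04 to 0.35 for Tbc1d21, 0.09 to 0.20 for Vdac3, -0.14 to -0.03 for the Gk2 to Gykl1 ratio and 0.06 to 0.12 for the Vdac3 to Vdac2 ratio. Quality weights gave 0.20 for Smcp, 0.15 for Gk2, 0.21 for Gykl1, 0.29 for Armc12 and Tbc1d21, 0.13 for Vdac2 and 0.20 for Vdac3. With the spermatid score Gykl1, Armc12 and Tbc1d21 were at 0.02, 0.04 and 0.02. Same-numbered libraries did not deviate together (r = 0.13, 0.05, -0.05 and 0.04, with 2 of 4 knockout-labelled libraries closest to their own number), so the numbers are not treated as pairs. The intervals, up to 0.67 on the log2 scale, set what 4 libraries per group could show.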
